A study of Mus musculus with 27 samples.

Results

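The 32 genes described here encode proteins of the synaptic vesicle, of the machinery that fuses it with the membrane, of the active zone where fusion takes place, and a few proteins that hold both sides of the synapse together. They were chosen by name, with earlier results of these data known, and all 32 were found among the 40129 genes of the deposited mouse table. The table covers whole retinas of 27 mice, one library per mouse, from the oxygen-induced retinopathy (OIR) model. All mice were wild type C57BL/6 (the labels' name, given as C57BL/6J in the study's methods). OIR pups were kept in 75% oxygen from postnatal day (p) 7 to p12, which closes central retinal vessels, and were killed after return to room air at p14, when the retina is ischemic, or at p17, when neovascularization peaks. Control pups stayed in room air until p14 or p17 and are called nOIR p14 and nOIR p17. The comparisons rest on 12 control mice, 6 at either age, and on 6 OIR mice at p14 and 8 at p17, numbers that hold for every value below. One more nOIR p14 mouse, S4, was left out as in the study, for its lens transcripts. A library came from one or both retinas of a mouse, and the mice of a group came from 2 to 4 litters that could not be assigned to single mice, so p-values treat littermates as independent.

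At a chemical synapse, vesicles loaded with transmitter are held near the membrane by synapsins and active zone scaffolds, primed by Munc13 and RIM proteins, and fused by SNARE proteins once calcium binds to a synaptotagmin. Complexins clamp and then promote this fusion. The retina has 2 kinds of release site. Photoreceptors and bipolar cells release glutamate continuously at ribbon synapses, which are built around RIBEYE, use syntaxin 3 and the complexins encoded by Cplx3 and Cplx4, and take in calcium through the channel that Cacna1f encodes. Cplx3 is also found in some amacrine cells. Amacrine cells otherwise use conventional synapses with synapsins, syntaxin 1 and the complexins encoded by Cplx1 and Cplx2.

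Values are the deposited reads divided by each mouse's size factor, called normalized reads, and recovered totals ran from 17029536 to 33593428 reads per mouse (median 30024568). A log2 fold change is the difference of group means of log2(normalized reads + 1), which limma tested over 27137 genes with Benjamini-Hochberg adjustment. A gene was called at an adjusted p under 0.05. OIR p17 mice S6, S7 and S8 stood apart for Syn2 and a few other genes, and OIR p14 S1 was lowest of its group for several members, so calls that rest on these mice are also given without them. All 32 members passed the filter of a mean of at least 1 normalized read. The lowest member mean over the 26 mice was 479 normalized reads, so none of the members was near the limit of detection. The members' transcripts are listed without strand information, and gene totals do not separate isoforms. Ctbp2 counts therefore cannot separate RIBEYE from the transcriptional corepressor CtBP2. Of the 32 members, 10 share exon bases with another gene (GENCODE exons of GRCm38). The share is 16.8% for Syp, with Gm14703 on the opposite strand, 5.05% for Ctbp2, with Fgfr2, 4.12% for Pclo, 3.92% for Unc13a, 3.48% for Nrxn3 and at most 1.3% for the other 5. Timp1 lies inside Syn1 and Timp4 inside Syn2, and of these pairs Syn2 shares 1.28% of its exon bases with Timp4 while Syn1 shares none with Timp1.

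Levels per kilobase of exon give the order of the members in the untreated p17 retina. Slc17a7, which encodes the vesicular glutamate transporter of photoreceptor and bipolar terminals, was first with 11166 normalized reads per kilobase. Cplx4 followed with 10452, Snap25 with 9693, Vamp2 with 7906 and Cplx3 with 7015 per kilobase. The other syntaxin and complexin genes lay below their ribbon synapse relatives on this scale, with 5607 per kilobase for Stx3 and 215 for Stx1a, and with 2793 for Cplx1 and 335 for Cplx2. At the lower end, Homer1 had 73.4, Sv2c 72.2 and Bsn 59.3 normalized reads per kilobase. Exon lengths count every annotated exon of a gene, so a long unused exon lowers this level, and neighbours in the order were not tested against each other.

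Some members were lower in the retinas of OIR mice at each age, relative to all RNA measured, and no member was called higher. At p14, 5 of 32 members were called lower (Syn1, Snap25, Stx1a, Cplx1 and Rims1). Over all genes tested, 2.91% were called lower and 3.18% higher at p14, and among the 9218 genes with a mean at least that of the lowest member, 5.35% were called lower. At p17, 11 of 32 were called lower (Syn2, Sv2a, Sv2b, Syt1, Syt2, Snap25, Vamp1, Cplx1, Cplx3, Rims1 and Rims2), against 5.12% lower and 7.39% higher of all genes tested, and 9.82% lower of the 9218. Snap25, Cplx1 and Rims1 were called at both ages. The changes were modest. Log2 fold changes of the 32 members ran from -0.70 to 0.19 at p14 (median -0.20, against 0.017 over all genes tested) and from -1.18 to 0.22 at p17 (median -0.23, against -0.023). All mice of the OIR group lay below all controls for 3 members at p14 (Syn1, Slc17a7 and Cplx1) and for 8 at p17 (Syn1, Syn2, Sv2a, Snap25, Vamp1, Cplx1, Cplx3 and Rims1), beside 1.86% and 1.98% of all genes. Below 0 were 27 of the 32 log2 fold changes at p14 and 25 at p17, beside 12970 and 14351 of the 27137 genes tested and 5115 and 5839 of the 9218. The count of 0 members higher was from limma, where 0 members were higher at an unadjusted p under 0.05 at either age, and edgeR and DESeq2 on the recovered reads also called 0 and 0 higher at p14 and 0 and 0 at p17.

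**Figure D1:**
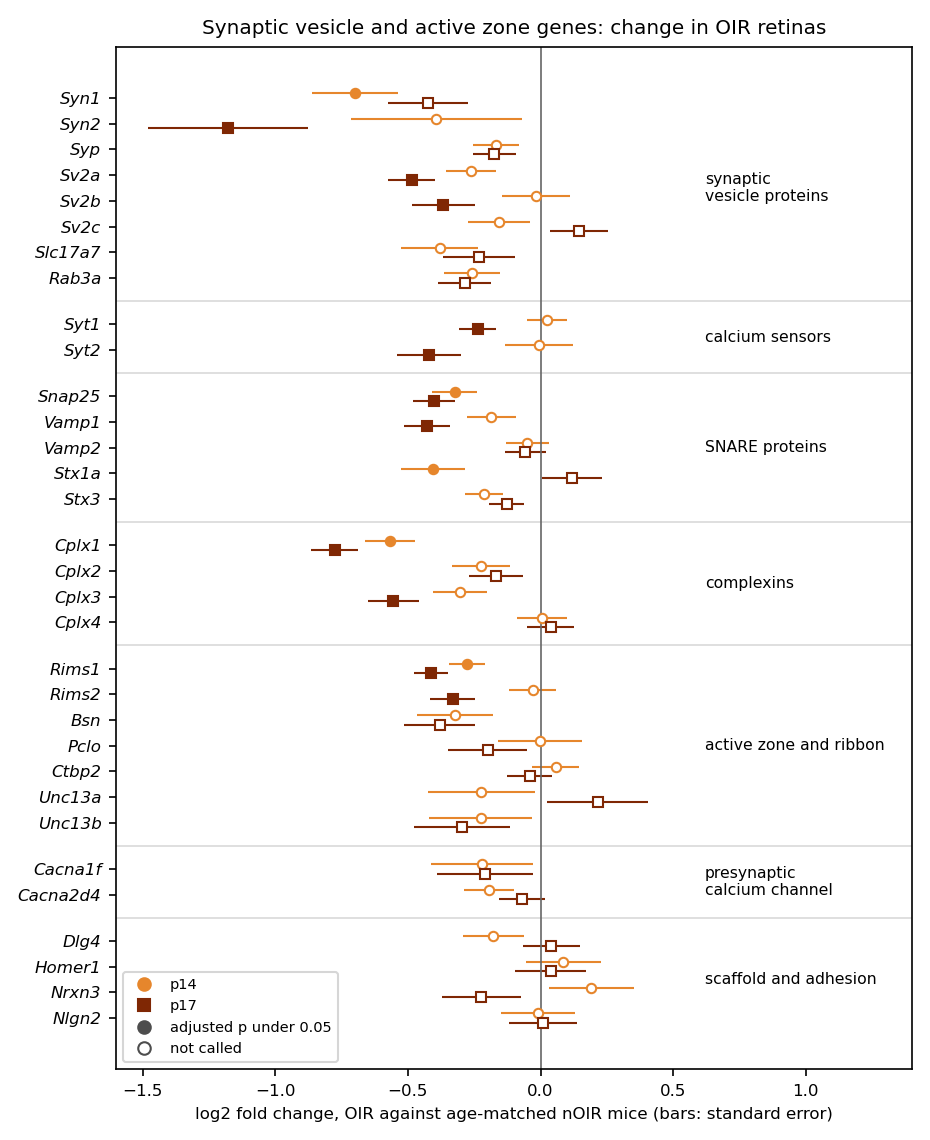
Log2 fold change (x axis) of each of the 32 members, grouped by role (y axis), in OIR against nOIR mice at p14 (circles) and p17 (squares), with standard errors as bars and filled symbols for an adjusted p under 0.05. All filled symbols lie left of 0, 5 at p14 and 11 at p17, while the 4 scaffold and adhesion members (Dlg4, Homer1, Nrxn3 and Nlgn2) have none.

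Before the values, the stretches upstream of Cplx1, Rims1 and Cplx3 are shown because these 3 members had the smallest adjusted p. They are the 250 bases before the RefSeq start of each gene (GRCm38.p6), read 5′ to 3′ on the gene's own strand. Capitals mark ACGTG on either strand (CACGT on the other), the core letters of the element that hypoxia-inducible factors bind. CACGTG, which Cplx3 holds, contains both readings and is also an E-box.
Cplx1, chr5:108550028-108550277, minus strand: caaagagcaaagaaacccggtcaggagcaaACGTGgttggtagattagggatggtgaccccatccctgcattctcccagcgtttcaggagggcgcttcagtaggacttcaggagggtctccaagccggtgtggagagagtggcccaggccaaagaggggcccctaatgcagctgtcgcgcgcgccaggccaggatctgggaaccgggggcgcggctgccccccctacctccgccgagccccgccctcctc
Rims1, chr1:22806159-22806408, minus strand: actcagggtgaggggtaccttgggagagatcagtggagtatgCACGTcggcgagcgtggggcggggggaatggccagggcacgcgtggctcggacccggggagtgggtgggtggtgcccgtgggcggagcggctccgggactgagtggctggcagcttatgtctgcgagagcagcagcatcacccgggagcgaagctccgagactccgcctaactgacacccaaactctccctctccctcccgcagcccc
Cplx3, chr9:57606282-57606531, minus strand: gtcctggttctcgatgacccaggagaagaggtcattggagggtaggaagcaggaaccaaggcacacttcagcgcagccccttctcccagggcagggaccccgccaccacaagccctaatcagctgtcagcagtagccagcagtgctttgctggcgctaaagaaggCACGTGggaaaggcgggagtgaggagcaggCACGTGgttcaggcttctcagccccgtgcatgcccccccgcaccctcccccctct
Of the 27 members with an upstream window in the RefSeq table, 8 held ACGTG on either strand (Cplx1, Cplx3, Homer1, Rims1, Slc17a7, Sv2b, Unc13a and Unc13b), or 29.6%, against 18.5% of 27025 genes with windows of the same length. A gene can have several windows, and by window the shares were 25% of 40 member windows and 16.6% of 32851. Of these 8, Slc17a7, Homer1, Unc13a and Unc13b were called at neither age. TAATCC, core letters bound by the photoreceptor factor CRX, stood in windows of 4 of 27 members (Ctbp2, Dlg4, Sv2b and Syp), or 14.8%, against 7.21% of genes, and by window in 12.5% against 6.25%. The core of RE1, the element of the neuronal silencer REST, was searched as well, as an exact match to a fixed string. It was in windows of 0 of 27 members and of 0.037% of genes. An element that departs from the string at any fixed letter was missed. With a match this rare in all genes, 0 of 27 cannot show whether the members have an RE1 upstream. A match is only a description of these letters.

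Of the 4 complexin genes, Cplx1 was called lower at both ages, Cplx3 at p17, and Cplx2 and Cplx4 at neither. Cplx1, whose protein is the complexin of conventional synapses, had 4503 to 5618 (median 4915) normalized reads in nOIR p14 mice and 2956 to 3652 (median 3471) in OIR p14 mice. At p17 the nOIR mice had 5812 to 6383 (median 6082) and the OIR mice 2929 to 4667 (median 3539). Every OIR mouse lay below every control of its age, in both comparisons. Its log2 fold change came to -0.57 ± 0.094 (SE, adjusted p = 0.000186) at p14 and -0.78 ± 0.088 (SE, adjusted p = 1.17e-07) at p17, so that Cplx1 RNA fell by 32.5% and by 41.6%. It was the member with the smallest adjusted p at each age. Cplx2, its closest relative, had log2 fold changes of -0.22 (adjusted p = 0.289) and -0.17 (adjusted p = 0.34), and was not called, although without OIR p17 S6 to S8 its p17 value was -0.31 (adjusted p = 0.0446).

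Cplx3, a complexin of ribbon synapses, had 18985 to 22598 (median 20641) normalized reads in nOIR p17 mice and 10926 to 16941 (median 14354) in OIR p17 mice. The groups did not overlap, and the log2 fold change was -0.55 ± 0.10 (SE, adjusted p = 8.34e-05). At p14 its groups overlapped, with 15798 to 21519 (median 20086) against 13809 to 18442 (median 15599) normalized reads, and the log2 fold change of -0.31 ± 0.10 (SE, adjusted p = 0.0759) was not called. Without OIR p14 S1 it was -0.35 (adjusted p = 0.0383) and was called. Cplx4, the other ribbon complexin, had log2 fold changes of 0.0067 at p14 (95% interval -0.19 to 0.20, adjusted p = 0.988) and 0.039 at p17 (-0.14 to 0.22, adjusted p = 0.862). Those intervals hold decreases of up to 0.19 and 0.14 on the log2 scale. Its mice of both treatments overlapped throughout, with 17097 to 21807 (median 20729.8) normalized reads in nOIR p17 and 16391 to 24089.7 (median 20825) in OIR p17 mice.

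**Figure D2:**
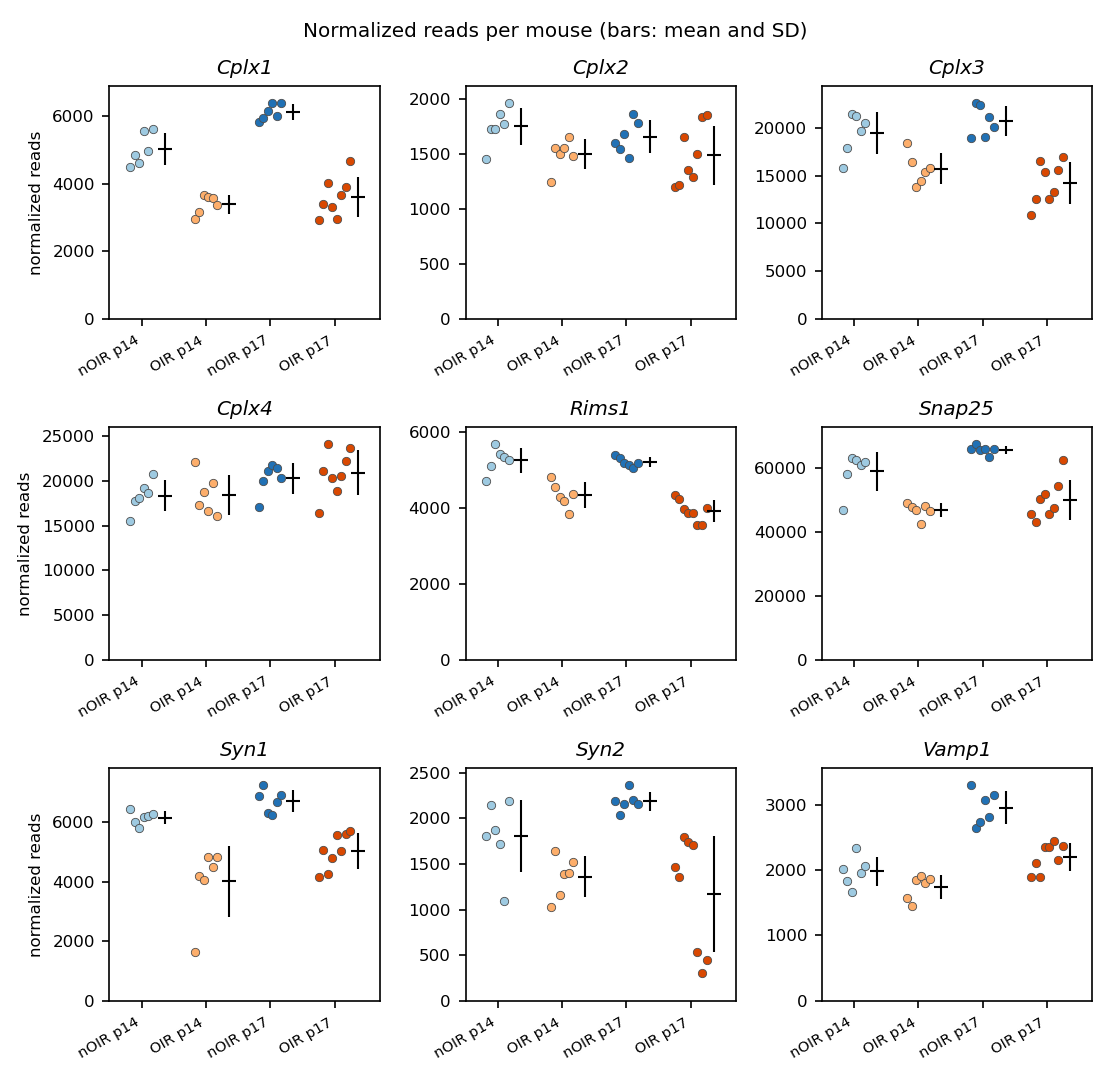
Normalized reads (y axis, from 0) of 9 members in each mouse, by group (x axis), with the mean and SD to the right of each group. Cplx1 is lower in every OIR mouse than in every control of its age, Cplx4 overlaps at both ages, and 3 OIR p17 mice stand apart for Syn2.

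Among the vesicle proteins, 1 of 8 was called lower at p14 and 3 of 8 at p17. Synapsins tether vesicles to each other and to actin. Syn1 ranged over 5801 to 6452 (median 6204) normalized reads in nOIR p14 mice and 1647 to 4843 (median 4351) in OIR p14 mice. The groups did not overlap, and the log2 fold change was -0.70 ± 0.16 (SE, adjusted p = 0.00656). One mouse, OIR p14 S1, had the lowest value (1647), and without it the call held with a log2 fold change of -0.46 (adjusted p = 0.000453). At p17 the Syn1 groups did not overlap either, at 6246 to 7255 (median 6784) against 4169 to 5700.2 (median 5055) normalized reads, but the log2 fold change of -0.42 ± 0.15 (SE, adjusted p = 0.0661) missed the threshold. Leaving out OIR p14 S1, which enters the shared estimate of spread, gave the same p17 value with an adjusted p of 7.46e-05.

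Syn2 was called at p17 with a log2 fold change of -1.18 ± 0.30 (SE, adjusted p = 0.00699). The 8 OIR p17 mice fell into 2 sets of values. Mice S1 to S5 had 1356 to 1792 normalized reads of Syn2, and mice S6, S7 and S8 had 538, 299 and 443. The nOIR p17 mice had 2038 to 2364 (median 2178), all above both sets. Without S6 to S8, an alternative chosen after seeing the data, the log2 fold change was -0.45 (adjusted p = 0.0348) and was still called. For Syn1 those 3 mice were not below S1 to S5 (4169 to 5593 normalized reads) but were below all controls, at 5037, 5629 and 5700.2 normalized reads. At p14 Syn2 was not called, with a log2 fold change of -0.39 ± 0.32 (SE, adjusted p = 0.615).

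The SV2 proteins are transporter-like glycoproteins of the vesicle membrane. Sv2a had 14143 to 17379 (median 15448) normalized reads in nOIR p17 mice and 9622 to 12265 (median 11221) in OIR p17 mice, without overlap. The Sv2a log2 fold change came to -0.49 ± 0.088 (SE, adjusted p = 0.000176) at p17 and -0.26 ± 0.094 (SE, adjusted p = 0.108) at p14, and -0.17 (adjusted p = 0.267) at p14 without OIR p14 S1. The p14 value was called in 2 of 40 alternatives, with nOIR p14 S4 included and without OIR p14 S6 (lowest adjusted p = 0.045). Sv2b, the form of photoreceptor and bipolar terminals, overlapped between the p17 groups (19236 to 27259 (median 19677) against 13654 to 22415 (median 15877)). Its p17 log2 fold change of -0.37 ± 0.12 (SE, adjusted p = 0.0402) was called, while at p14 it was -0.018 ± 0.13 (SE, adjusted p = 0.974). The Sv2b call was lost in 15 of 40 alternatives, including edgeR and leaving out S6 to S8 (adjusted p = 0.0121 to 0.229 over the alternatives). Sv2c, the least abundant form, was -0.16 (adjusted p = 0.564) at p14 and 0.14 (adjusted p = 0.481) at p17, and 0.047 (adjusted p = 0.898) at p17 without S6 to S8.

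Of the remaining vesicle members, none was called at either age. Slc17a7 had log2 fold changes of -0.38 (adjusted p = 0.141) and -0.23 (adjusted p = 0.33), although at p14 all 6 OIR mice lay below all 6 controls. Without OIR p14 S1 its p14 value was -0.19 (adjusted p = 0.329), and without S6 to S8 its p17 value was -0.35 (adjusted p = 0.16). Rab3a, the small GTPase that brings vesicles to the active zone, had -0.26 (adjusted p = 0.173) and -0.29 (adjusted p = 0.0537), and at p17 -0.41 (adjusted p = 0.00421) without S6 to S8. For Syp, which encodes the abundant vesicle membrane protein synaptophysin, the values were -0.17 (adjusted p = 0.345) and -0.17 (adjusted p = 0.194).

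Both calcium sensors were called lower at p17 and not at p14. Syt1, the sensor of fast release in most neurons, had 34509.9 to 41566 (median 35708) normalized reads in nOIR p17 and 28109 to 35696 (median 31873) in OIR p17 mice. The groups overlapped, and the log2 fold changes were 0.023 ± 0.075 (SE, adjusted p = 0.938) at p14 and -0.24 ± 0.071 (SE, adjusted p = 0.0222) at p17. Syt2, a fast sensor of a smaller set of neurons, had 857 to 1393 (median 942) and 615 to 952 (median 750.5) normalized reads, also with overlap. Its log2 fold changes were -0.0055 ± 0.13 (SE, adjusted p = 0.993) and -0.42 ± 0.12 (SE, adjusted p = 0.0172). The Syt1 call was lost in 6 of 40 alternatives, among them leaving out S6 to S8, and the Syt2 call in 1, without nOIR p17 S6. Whether the effects at the 2 ages differed was tested and not called (difference -0.26 (adjusted p = 0.309) for Syt1 and -0.42 (adjusted p = 0.367) for Syt2).

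Of the 5 SNARE genes, 2 were called lower at p14 and 2 at p17. Snap25, the membrane SNARE of nearly all neuronal release, had 46892 to 63190.0 (median 61619) normalized reads in nOIR p14 and 42674 to 49170.3 (median 47540.0) in OIR p14 mice. At p17 the ranges were 63608 to 67566 (median 66004) and 43133 to 62716 (median 48992), without overlap. The log2 fold changes were -0.32 ± 0.086 (SE, adjusted p = 0.0186) and -0.40 ± 0.08 (SE, adjusted p = 0.00058). At p14 the groups met because of 1 control, nOIR p14 S1, at 46892 normalized reads, while the other 5 controls were above every OIR mouse. The p14 call of Snap25 was lost without nOIR p14 S5, without OIR p14 S4 and under quantile normalization (adjusted p = 0.00204 to 0.0682 over the alternatives).

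Of the vesicle SNARE genes, Vamp1 was called lower at p17 and Vamp2 at neither age. Vamp1 had 2647 to 3298 (median 2946) normalized reads in nOIR p17 and 1890.0 to 2438 (median 2252) in OIR p17 mice, without overlap, and a log2 fold change of -0.43 ± 0.086 (SE, adjusted p = 0.000615) (p14: -0.19 (adjusted p = 0.305)). Vamp2, the more abundant form, had -0.049 (adjusted p = 0.852) and -0.057 (adjusted p = 0.736). The syntaxin of conventional synapses, Stx1a, was called at p14 (-0.41 (adjusted p = 0.042)) and not at p17 (0.12 (adjusted p = 0.603)), with a difference between the 2 effects of 0.53 (adjusted p = 0.136). Without S6 to S8 its p17 value was -0.03 (adjusted p = 0.938), with the sign turned. That p14 call was lost without OIR p14 S1, at -0.32 (adjusted p = 0.116), and in 15 of the other 39 alternatives (adjusted p = 0.0188 to 0.119 over all 40), Xist as a covariate and the replicate block among them. Stx3, its ribbon synapse counterpart, had -0.21 (adjusted p = 0.0765) and -0.13 (adjusted p = 0.251).

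In the active zone, the RIM genes were called lower and the other 5 members were not. Rims1 encodes RIM1, the scaffold that links vesicles to calcium channels. Its normalized reads were 4710.3 to 5673 (median 5306) in nOIR p14 mice and 3833 to 4820.3 (median 4312) in OIR p14 mice, and 5054 to 5398 (median 5184) against 3543 to 4346 (median 3917) at p17. The p14 groups overlapped in single mice, and at p17 all 8 OIR mice lay below all controls. The log2 fold changes of -0.28 ± 0.068 (SE, adjusted p = 0.0101) and -0.41 ± 0.064 (SE, adjusted p = 1.83e-05) kept their calls at both ages in all 40 alternatives fitted with the same threshold. Rims2, the RIM of photoreceptor ribbons, was called at p17 only, at 7663 to 8819 (median 8607) against 5328 to 7960.0 (median 6972) normalized reads with overlap. Its log2 fold changes were -0.03 ± 0.089 (SE, adjusted p = 0.929) and -0.33 ± 0.083 (SE, adjusted p = 0.00607), and the p17 call was lost without S6 to S8, with mice rescaled to the same total and under quantile normalization.

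The giant scaffolds Bassoon and Piccolo, which anchor ribbons and organise conventional active zones, had log2 fold changes of -0.32 (adjusted p = 0.235) and -0.38 (adjusted p = 0.0628) (Bsn) and of -0.0011 (adjusted p = 0.999) and -0.20 (adjusted p = 0.476) (Pclo). Ctbp2, which holds the RIBEYE transcript, had 0.057 (adjusted p = 0.84) and -0.042 (adjusted p = 0.838). Of the Munc13 priming factors, Unc13a had -0.22 (adjusted p = 0.67) and 0.22 (adjusted p = 0.564), and Unc13b had -0.23 (adjusted p = 0.641) and -0.30 (adjusted p = 0.355). The ribbon calcium channel genes were not called: Cacna1f had -0.22 (adjusted p = 0.65) and -0.21 (adjusted p = 0.556), and Cacna2d4, its auxiliary subunit, -0.19 (adjusted p = 0.294) and -0.07 (adjusted p = 0.714). Single mice moved several of these values. Without nOIR p14 S1, the p14 values were -0.085 for Unc13b and -0.082 for Cacna1f. Without OIR p14 S1, the p14 values were -0.18 (adjusted p = 0.529) for Bsn, -0.013 (adjusted p = 0.987) for Unc13a and -0.11 (adjusted p = 0.868) for Cacna1f, and the p17 value of Bsn was called, at -0.38 (adjusted p = 0.0171). Without OIR p17 S6 to S8, the p17 values were -0.12 (adjusted p = 0.724) for Pclo and -0.10 (adjusted p = 0.842) for Unc13b. Standard errors of Unc13a, Unc13b and Cacna1f were 0.18 to 0.20, against 0.064 to 0.068 for Rims1, so a change of the size seen in Rims1 was harder to detect there.

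Nor was any of the 4 members for synaptic scaffolds and adhesion called, which belong to both sides of the synapse. Dlg4, which encodes PSD-95 and is also used presynaptically in photoreceptor terminals, had -0.18 (adjusted p = 0.478) and 0.04 (adjusted p = 0.886), and at p14 -0.026 (adjusted p = 0.918) without OIR p14 S1. Homer1, a scaffold of metabotropic glutamate receptors, had 0.086 (adjusted p = 0.853) and 0.038 (adjusted p = 0.915), with 0.17 (adjusted p = 0.622) at p14 without OIR p14 S1 and 0.27 (adjusted p = 0.163) at p17 without S6 to S8. The genes of presynaptic neurexin 3 (Nrxn3) and of postsynaptic neuroligin 2 (Nlgn2), which join both sides, had 0.19 (adjusted p = 0.625) and -0.22 (adjusted p = 0.414), and -0.0097 (adjusted p = 0.988) and 0.0088 (adjusted p = 0.981). Without nOIR p14 S3, the p14 value of Nrxn3 was 0.099. The medians of the 4 were 0.038 at p14 and 0.023 at p17, beside -0.26 and -0.33 for the 8 vesicle members. Among values near 0 that were not called, the sign at p17 turned without S6 to S8 for Cplx4, at -0.017 (adjusted p = 0.96), and Nlgn2, at -0.087 (adjusted p = 0.831). At p14 it turned without OIR p14 S1 for Cplx4, at -0.048 (adjusted p = 0.879), Nlgn2, at 0.036 (adjusted p = 0.946), Pclo, at 0.047 (adjusted p = 0.94), and Syt2, at 0.037 (adjusted p = 0.941).

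Split by the kind of synapse, 3 of the 5 conventional synapse members (Syn1, Stx1a and Cplx1) and 0 of the 10 ribbon members were called lower at p14. The share called lower at p14 was 2.91% of all genes tested and 5.35% of the 9218, so 0 of 10 is near those shares. Of the 3 conventional calls, that of Stx1a was lost without OIR p14 S1. At p17 the counts were 2 of 5 (Syn2 and Cplx1) and 3 of 10 (Sv2b, Cplx3 and Rims2), beside 5.12% of all genes tested and 9.82% of the 9218. At an unadjusted p under 0.05 in limma, 4 of the 10 ribbon members were lower at p14, and DESeq2 called 2 of them (Stx3 and Cplx3) there and edgeR 0. The median log2 fold changes were -0.41 and -0.42 for the conventional members, and -0.20 and -0.22 for the ribbon members. The remaining 17 members occur at both kinds of synapse or were not assigned. The difference between the 2 sets was not tested, and both hold members that were not called at either age.

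**Figure D3:**
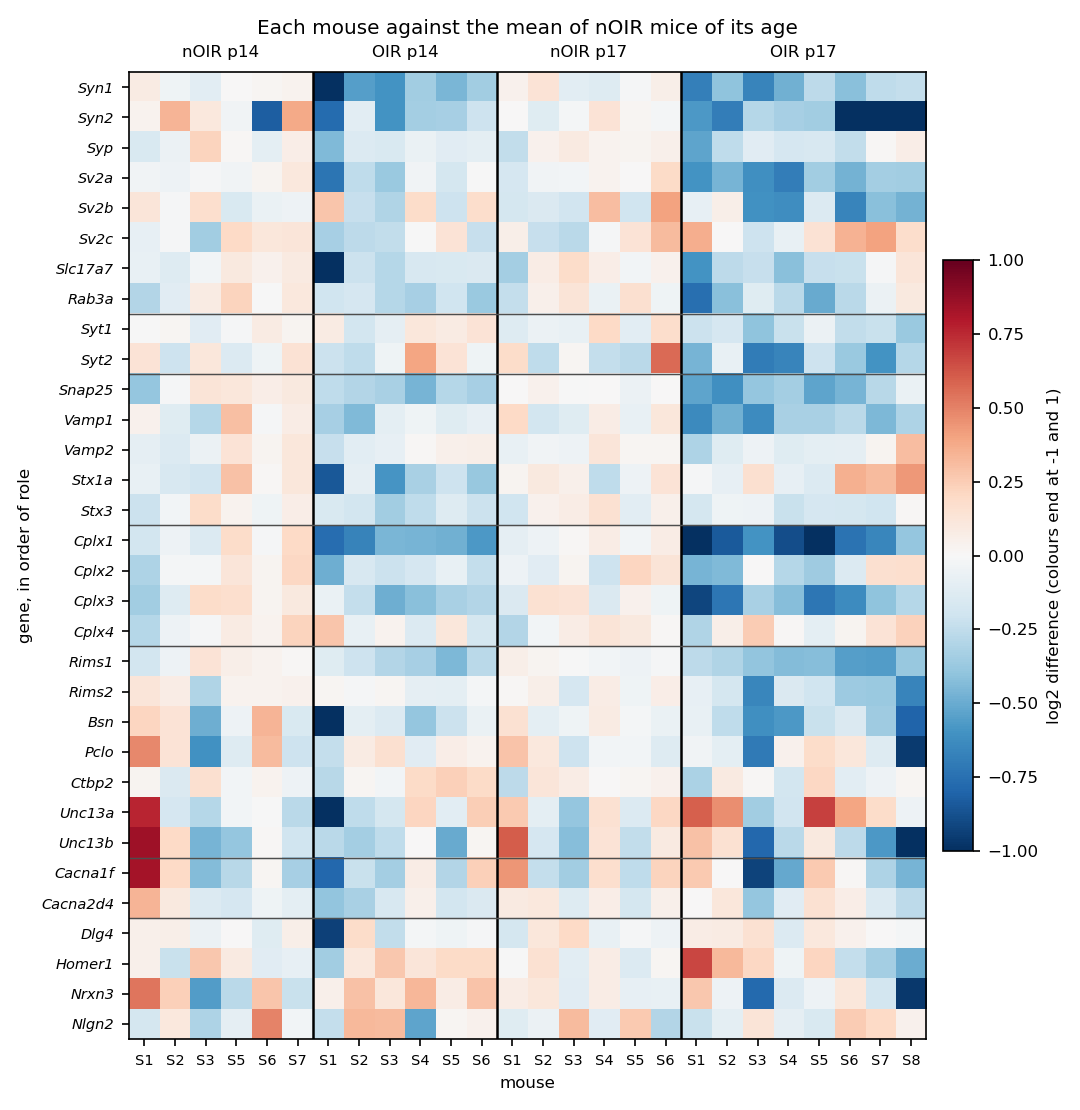
Log2 difference of each mouse (columns, by group) from the mean of the nOIR mice of its age, for the 32 members in order of role (rows), with colours from blue (lower) through white (0) to red (higher) that end at -1 and 1. A nOIR mouse is set against the other nOIR mice of its age. Cplx1 and Rims1 are blue in all 14 OIR columns (Rims1 faintly in OIR p14 S1), and Syn2 is darkest in OIR p17 S6 to S8.

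Mouse by mouse, the median log2 difference of the 32 members from the age-matched nOIR mean was below 0 in all 14 OIR mice. It ran from -0.30 to -0.074 in OIR p14 mice and from -0.37 to -0.11 in OIR p17 mice. In the 12 nOIR mice, each set against the mean of the other nOIR mice of its age, it ran from -0.057 to 0.066. Between 21 and 30 of the 32 members were below the control mean in an OIR mouse, and between 9 and 21 in a control, so that the ranges met at 21. These medians are a description of the members, not a test. In a whole retina, fewer cells of a type and less RNA per cell cannot be told apart.

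Related genes were set against each other within each mouse, which removes any factor that scales a whole library. The 12 pairs were chosen after the values had been seen, so their log2 ratios are given as a description, with no test. The log2 ratio of Cplx1 to Cplx2 at p17 was 1.28 ± 0.11 (SD) in the 8 OIR mice and 1.89 ± 0.14 in the 6 nOIR mice, a difference of -0.61. At p14 the difference was -0.34. All OIR mice lay below all controls at both ages.

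The log2 ratio of Cplx3 to Cplx4 at p17 was -0.56 ± 0.10 (SD) in the 8 OIR mice and 0.031 ± 0.14 in the 6 nOIR mice, a difference of -0.59. At p14 it was -0.23 ± 0.16 (SD) in the 6 OIR mice and 0.084 ± 0.10 in the 6 nOIR mice, a difference of -0.31. The groups overlapped at neither age.

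For Sv2a to Sv2c the p17 difference was -0.63 on the log2 scale and for Vamp1 to Vamp2 it was -0.37, both without overlap. At p14 these differences were -0.11 and -0.14, both with overlap. The p17 groups overlapped for Sv2b to Sv2c, with a difference of -0.51 (-0.32 without OIR p17 S6 to S8), for Cplx1 to Cplx3, with -0.22, and for Unc13a to Unc13b, with 0.51. The widest p17 difference was that of Syn1 to Syn2, at 0.75 with overlap, which was -0.053 without S6 to S8. The ratio of Rims1 to Rims2 differed by -0.25 at p14 and by -0.081 at p17, with overlap at both ages.

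**Figure D4:**
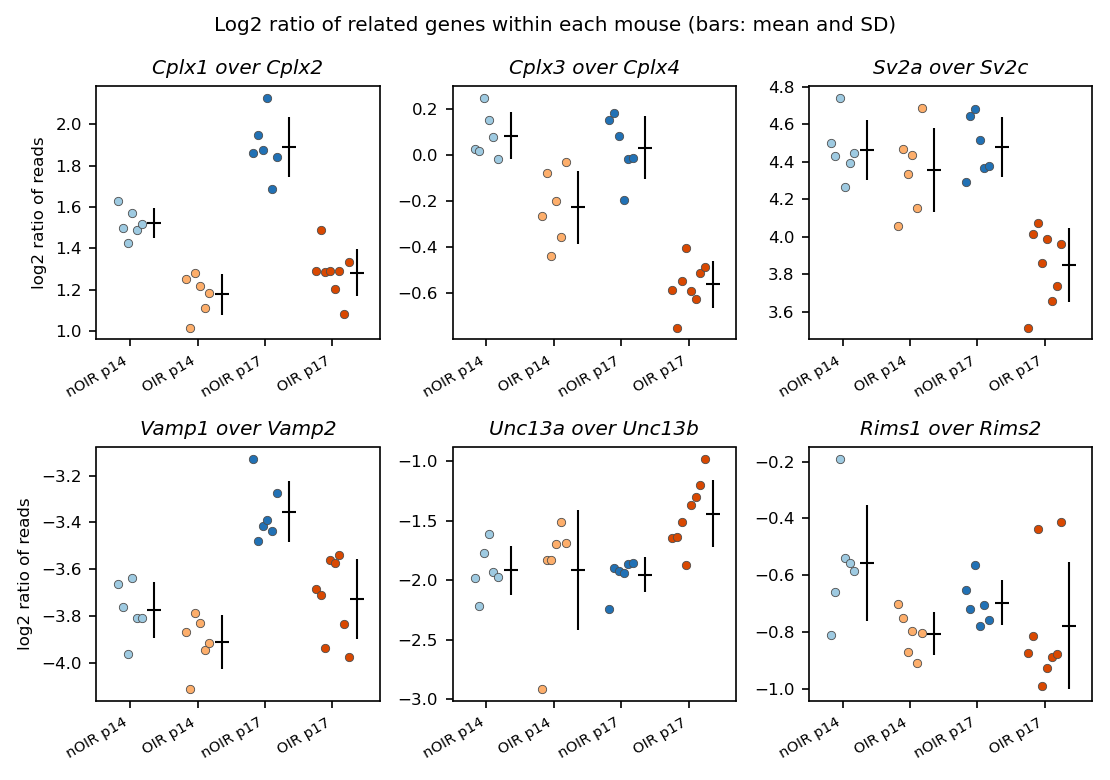
Log2 ratio of normalized reads (y axis, which does not start at 0) between 6 pairs of related members in each mouse, by group (x axis), with mean and SD beside the points. For Cplx3 over Cplx4 the OIR p17 mice centre on -0.56 and the nOIR p17 mice on 0.031, with no overlap.

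The change of the OIR effect from p14 to p17 was tested as a contrast of its own. For 0 of the 32 members did the effects differ in limma (edgeR 0 lower and 0 higher, DESeq2 0 lower and 0 higher), while 1.43% and 0.147% of all genes were called higher and lower. At an unadjusted p under 0.05, 3 members were lower (Syt1, Syt2 and Rims2) and 1 higher (Stx1a). The larger number of members called at p17 is therefore not shown to be a larger effect, and the p17 comparison has 2 more OIR mice.

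Between p14 and p17, few members moved in either treatment. In nOIR mice, Vamp1 rose from 1669 to 2341 (median 1984) to 2647 to 3298 (median 2946) normalized reads, without overlap, a log2 fold change of 0.58 ± 0.092 (SE, adjusted p = 0.00185). Stx1a fell over the same days, with a log2 fold change of -0.55 ± 0.12 (SE, adjusted p = 0.0364), from 753 to 997 (median 826) to 493 to 618 (median 584) normalized reads. That call was lost in 14 of 40 alternatives (adjusted p = 0.00183 to 0.117), among them the removal of any single control mouse but nOIR p14 S2. These were 1 member higher and 1 lower, against 0.158% of all genes in each direction. In OIR mice, Vamp1 (0.34 ± 0.086 (SE, adjusted p = 0.0139)) and Sv2c (0.43 ± 0.11 (SE, adjusted p = 0.0136)) were called higher at p17 than at p14 and 0 members lower (limma, with 3 lower at an unadjusted p under 0.05, and edgeR 0 and DESeq2 0), against 4.11% higher and 1.81% lower of all genes. Both of those calls were lost without OIR p17 S6 to S8. In OIR p17 mice Vamp1 had 1890.0 to 2438 (median 2252) normalized reads, all below the nOIR p17 mice and overlapping the nOIR p14 mice.

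The list of 58 other synaptic genes, also written with earlier results known, held more lower than higher calls. At p14, 13 of 58 were called lower, beside 2.91% of all genes, and 0 higher (2 higher at an unadjusted p under 0.05 in limma), with a median log2 fold change of -0.19. At p17, 22 were called lower, beside 5.12% of all genes, and 1 higher, with a median of -0.27. Rab3c, a vesicle GTPase related to Rab3a, had the smallest adjusted p at both ages. Its normalized reads were 1874 ± 128 (SD) in OIR p17 and 3160.2 ± 192 in nOIR p17 mice. The fold changes on the log2 scale were -0.72 ± 0.081 (SE, adjusted p = 5.16e-07) and -0.75 ± 0.076 (SE, adjusted p = 1.33e-08). Rph3a, a Rab3 effector, had -0.98 ± 0.15 (SE, adjusted p = 6.33e-05) at p14. Slc17a6, the glutamate transporter of ganglion cell terminals, had -0.46 ± 0.085 (SE, adjusted p = 0.000628) and -0.57 ± 0.079 (SE, adjusted p = 3.74e-06), and Sh3gl2, an endophilin of vesicle recycling, had -0.42 ± 0.058 (SE, adjusted p = 4.14e-06) at p17. The gene called higher at p17 was Rab3d, a Rab3 form of secretory cells, with 0.72 ± 0.15 (SE, adjusted p = 0.000952).

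Among markers of the retinal neurons, bipolar, amacrine and ganglion cell markers held most of the lower calls, while most rod, cone and horizontal cell markers were not called. These counts were not tested against each other. At p17 the sums of horizontal cell markers, like those of the bipolar, amacrine and ganglion cell lists, were lower in every OIR mouse than in every control. A sum weighs abundant genes most. Of the 4 horizontal cell markers only Calb1 was called lower at p17, 2 had log2 fold changes above 0, and the median was -0.10. Of the 5 OFF bipolar markers, 3 were called lower at p14 and 4 at p17, and their summed normalized reads were 4058 to 5884 in OIR p14 against 6644 to 7101 in nOIR p14 mice, and 3978 to 5302 in OIR p17 against 6902 to 8209 in nOIR p17 mice. Of the 7 ON bipolar markers, 1 and 6 were lower, with sums of 27061 to 33627 in OIR p14 against 30202 to 38463 in nOIR p14 mice, and 20887 to 28017 in OIR p17 against 31434 to 34701 in nOIR p17 mice. Amacrine markers were lower in 2 of 7 cases at p14 and in 4 at p17, with sums of 13886 to 16929 in OIR p14 against 18048 to 21459.7 in nOIR p14 mice, and 13544 to 16497 in OIR p17 against 19971 to 23096 in nOIR p17 mice. Ganglion cell markers were lower in 3 and 6 of 9 cases, with sums of 32090.5 to 35658 in OIR p14 against 39507 to 47957 in nOIR p14 mice, and 29192 to 42344 in OIR p17 against 46379 to 51353 in nOIR p17 mice. These 4 lists include Slc17a6, which is also among the other synaptic genes. Of the photoreceptor lists, 2 and 3 of 8 rod markers were lower, with sums of 897906 to 1232946 in OIR p14 against 1167798 to 1430879 in nOIR p14 mice, and 1042466 to 1611636 in OIR p17 against 1244317 to 1626394 in nOIR p17 mice. Among the 7 cone markers 1 and 0 were lower (at p17 also 0 at an unadjusted p under 0.05 in limma), with sums of 41474 to 61963 in OIR p14 against 36106 to 54737 in nOIR p14 mice, and 54798 to 86980.1 in OIR p17 against 59676 to 77458 in nOIR p17 mice. Horizontal cell markers were lower in 1 of 4 cases at each age, with sums of 3245 to 5043 in OIR p14 against 4065 to 6519 in nOIR p14 mice, and 3764 to 5511 in OIR p17 against 6677 to 7251 in nOIR p17 mice. None of these neuronal markers was called higher, and no marker was at 0 in all mice.

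Markers of other cells of the retina were called in both directions. Müller glia markers were lower in 4 and 5 of 6 cases, with sums of 47308 to 57775 in OIR p14 against 58238 to 76714 in nOIR p14 mice, and 46439 to 64446 in OIR p17 against 63904 to 74047 in nOIR p17 mice. Of the 3 astrocyte and gliosis markers, 1 was higher at p14 and 2 at p17, with sums of 2302 to 7933 in OIR p14 against 689 to 1483 in nOIR p14 mice, and 2385 to 9181 in OIR p17 against 714 to 1232 in nOIR p17 mice. Gfap, which marks reactive glia, had log2 fold changes of 3.23 (adjusted p = 5.11e-08) and 3.68 (adjusted p = 1.46e-10). Of the 6 endothelial markers, 2 were higher and 1 (Cldn5) lower at p14, with a median of -0.13, and 5 were higher at p17, with sums of 2774 to 4296 in OIR p14 against 3297 to 3792 in nOIR p14 mice, and 5847 to 7083 in OIR p17 against 3427 to 3701 in nOIR p17 mice. Of the 4 pericyte markers, 3 were lower at p14 and 4 higher at p17, with sums of 1266 to 2645 in OIR p14 against 3139 to 3819.9 in nOIR p14 mice, and 8119 to 11313 in OIR p17 against 2692 to 3362 in nOIR p17 mice. At p14, 1 of 6 microglia markers was higher and 0 of 4 red blood cell markers were called in limma (0 also at an unadjusted p under 0.05). At p17, 4 of 6 microglia and 4 of 4 red blood cell markers were higher, with sums of 1859 to 3161 and 1084 to 16612 normalized reads in OIR mice and 991 to 1143 and 142 to 1104 in nOIR mice. Lens and retinal pigment epithelium markers were called at neither age, but lens sums varied widely, with 45.1 to 6122 in OIR p14 against 33.7 to 18003 in nOIR p14 mice, and 280.0 to 31988 in OIR p17 against 133 to 10746 in nOIR p17 mice. The part of these cell types in the change of the members was not tested. Without the 4 mice with high Cryaa (nOIR p14 S5 and OIR p17 S2, S7 and S8), 4 members were called lower at p14 and 11 at p17. These 4 mice, kept in the main fit, had 6771.3 to 12403.9 normalized reads of Cryaa, a lens gene. The excluded nOIR p14 S4 had 6141.5.

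Base composition was set beside the members' changes at each age. The GC content of the members' protein-coding transcripts ran from 43.5% to 60.4% (median 53.6%). Across the 32 members, Spearman's rho between GC content and log2 fold change came to -0.49 at p14 and -0.024 at p17, a description over genes that share libraries. The p14 value includes OIR p14 S1, and no rho without this mouse is at hand. It stood apart as lowest of its group for Syn1, Syp, Slc17a7, Bsn and Unc13a, with GC contents of 56.8% to 59.0%. The same held for Homer1, with 43.5%. The 20 members at or above the median GC of the 9218 genes (50.7%) had a median log2 fold change of -0.22 at p14 and the 12 below it -0.024, beside -0.052 and -0.0011 for all of those genes with a GC value. At p17 the 2 sets of members had medians of -0.22 and -0.23. The part of base composition was not tested.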

How the data were processed

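RNA of whole mouse retinas was converted to cDNA with a kit that does not mark strand and sequenced as single reads. The authors mapped reads with STAR 2.7.8a to Gencode M28, counted them with featureCounts 2.0.1 and deposited a signal of normalized reads (DESeq2 1.34 size factors), from which whole reads were recovered for 100% of values (tolerance 0.1). The deposited log2 fold changes and adjusted p-values are the authors' own comparisons and were not used. All 4 groups were fitted at once with limma 3.58.1 (eBayes with trend) in R 4.3.3 on log2(normalized reads + 1), for 27137 genes with a mean of at least 1 and 26 mice, and p-values were adjusted over all genes by the Benjamini-Hochberg method. Depth does not limit these members, whose means over the 26 mice were 479 normalized reads or more, but reads are not independent molecules. No mouse was a copy of another of its group (chi-square per degree of freedom at least 9.39). Members and gene lists were chosen with earlier results of these data known. Members described in full are the 12 with the smallest adjusted p among those called, and of the other synaptic genes the 3 with the smallest adjusted p per age and direction. On simulated data for OIR p17 against nOIR p17 over 27137 genes, limma recovered 100% of genes changed by -1 and 80% of those changed by -0.5 on the log2 scale. The same simulation gave 15 false calls. It gave every gene the same dispersion, held no outlying mice or litters, and changed only well expressed genes. Its rates hold for those settings and need not hold for these mice. No recovery rate is at hand for smaller changes, the size seen in most members called at p17.

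Alternatives were an adjusted p under 0.01, a pseudocount of 0.1, a minimum mean of 10 or no filter, inclusion of nOIR p14 S4, fits restricted to the groups compared, mouse number as a block, quantile normalization, rescaling of mice to equal totals, edgeR 4.0.16, DESeq2 1.42.0, Cryaa or Xist as covariates, and leaving out mice with high Cryaa or each mouse in turn. Leaving out OIR p17 S6 to S8, and all alternatives for the pair ratios, were chosen after seeing the data. Upstream sequences are from RefSeq (GRCm38.p6), and 27 of 32 members matched by symbol. The authors' build differs from it, so coordinates are given for these windows only.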

Additional observations from a re-analysis of the deposited data

Results flagged for a closer look

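In 128 sets of values, 1 for each member and group, 14 had a lowest or highest mouse whose gap to the nearest other mouse was large for the range of the group (Dixon's 95% limit). Chance gives about 1 in 20. OIR p14 S1 accounted for 6 of the 14, as the lowest of its group for Syn1 (1647), Syp (17928), Slc17a7 (21296), Bsn (431), Unc13a (691) and Homer1 (666 normalized reads). The other 5 mice of that group had at least 4067, 21952, 43824, 673, 1399 and 914 normalized reads of these genes. Without this mouse 5 members were called lower at p14, as with it, but Stx1a had lost its call and Cplx3 had gained one.

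Among the controls, nOIR p17 S1 was lowest for Syp (21675), Cplx4 (17097) and Ctbp2 (8676 normalized reads). Mouse nOIR p14 S1 was lowest for Snap25 (46892) and highest for Unc13a (2592), nOIR p14 S3 was lowest for Rims2 (6477.5) and nOIR p14 S6 was lowest for Syn2 (1095.0 normalized reads). In OIR p14 mice, S4 was lowest for Snap25 (42674 normalized reads). Leaving out nOIR p17 S1 left 12 members called lower at p17. What sets these mice apart was not tested.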

How the results depend on the processing

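The direction of every named log2 fold change that was called held under all alternatives run. The count of 5 members lower at p14 became 2 at an adjusted p under 0.01 and 3 under quantile normalization, 7 in DESeq2 and with Cryaa as a covariate, and 3 to 6 when single mice were left out (3 without nOIR p14 S5 or OIR p14 S4). The count of 11 lower at p17 stayed within 8 (same total) and 14 (replicate block), and within 8 to 13 when single mice were left out (8 without nOIR p17 S6). For nOIR p17 against nOIR p14, the 1 member lower (Stx1a) became 0 at an adjusted p under 0.01, with the replicate block, under quantile normalization and without mice with high Cryaa, and 0 to 1 without single mice. For OIR p17 against OIR p14, the 2 members higher became 0 at an adjusted p under 0.01, in a fit of the compared groups only, without mice with high Cryaa and without OIR p17 S6 to S8, and 1 to 2 without single mice (1 without OIR p14 S2). The causes were not tested, except that a stricter threshold can only be met by fewer genes.

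With the replicate block, 4 members were lower at p14 and 14 at p17. Mice of the same number did not deviate together (median r 0.0031 over 34 pairs, -0.108 to 0.161, against -0.00117 over 218 other pairs), so the numbers do not pair the mice. Other scalings moved the median log2 fold change of all genes by less than 0.1. Litter and the number of retinas per library were not known per mouse and were not modelled. Sex was not given per mouse either. With Xist as a covariate, 4 members were lower at p14 and 11 at p17.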

Other observations

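In OIR p17 mice S6, S7 and S8 the low Syn2 came with low values of some genes that are not members, which were looked up after the Syn2 values had been seen. Gprin1, a growth cone protein, had 72.7 to 143 normalized reads in these 3 mice, 2147 to 2842 in OIR p17 S1 to S5 and 2312 to 3187 in nOIR p17 mice. Hcn2, a pacemaker channel, had 24.2 to 41.3, 445 to 725 and 532 to 692. The same genes were low in 2 controls, nOIR p14 S5 and S6, with 240.0 and 162 normalized reads of Gprin1 (2597 to 3207 in the other nOIR p14 mice) and 144 and 53.9 of Hcn2 (483 to 601). Syn2 was at 1725 and 1095 in these 2 controls. Among the members, Homer1 was also lower in S6 to S8 (624 to 746 against 852 to 1395 normalized reads in S1 to S5), while Stx1a (712 to 774 against 522 to 641.0) and Slc17a7 (51363 to 65301 against 39699 to 51024) were higher. No member but Syn2 was low to that degree in these mice.

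Pclo, Unc13b, Cacna1f and Nrxn3, picked after their values had been seen, lay on one side of the control mean in several mice, of which 4 with large differences are given. In nOIR p14 S1, the log2 difference from the mean of the other nOIR p14 mice was 0.84 for Unc13b, 0.83 for Cacna1f, 0.53 for Nrxn3 and 0.48 for Pclo. In nOIR p14 S3, also set against the other nOIR p14 mice, the same genes were at -0.46, -0.43, -0.56 and -0.60. OIR p17 S8, against the nOIR p17 mean, had -1.02, -0.47, -0.96 and -0.96, and OIR p17 S3 had -0.79, -0.93, -0.78 and -0.71. None of these 4 genes was called in OIR against nOIR mice at either age.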
